A study of Mus musculus and Rattus norvegicus with 12 samples.

Results

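The genes described here carry fatty acids into heart muscle cells and oxidise them in mitochondria and peroxisomes. They are 37 genes, taken by symbol from a list that uses no measured value, out of 54087 symbols counted in mouse hearts and 28909 counted in cultured rat cells. All 37 had a row in the mouse table and 36 had a row in the rat table. Rat Cd36 was not analysed here. RNA was sequenced in 12 libraries in 4 groups of 3. The cKO hearts came from Jmjd4f/f mice that also carry MCM, a tamoxifen-inducible Cre whose Myh6 promoter drives it in cardiomyocytes. The flox hearts came from Jmjd4f/f mice without the Cre transgene. Both kinds of mice received tamoxifen, and the apex of the heart was taken 14 days later, so each library is whole tissue although the labels call it cardiomyocytes. The cultured cells were ventricular cardiomyocytes (NRVCs) of Sprague-Dawley rats 1 day old, given siRNA for 48 h, either against Jmjd4 (siJmjd4) or a control (siNC). Mouse age, sex and strain are not in the labels used here. Since the flox mice lack Cre, an effect of Cre with tamoxifen and an effect of losing Jmjd4 cannot be told apart. The labels do not say whether the 3 samples of a group came from separate animals or cultures, so the p-values measure the spread between these samples.

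The adult heart draws most of its energy from fatty acids. Lipoprotein lipase frees them in the capillaries, membrane and binding proteins take them in, acyl-CoA synthetases activate them, and the carnitine shuttle moves them into the mitochondrial matrix, where each turn of beta-oxidation removes one acetyl unit in a dehydrogenation, a hydration, a further dehydrogenation and a thiolysis. Nuclear receptors of the PPAR and ERR families switch on many of these genes in heart muscle, and failing hearts are known to express less of them. Peroxisomes shorten very long and branched chains with a parallel set of enzymes.

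The RNAs of the pathway lay far lower in cKO than in flox hearts at nearly every mitochondrial step. Of the 37 genes, 33 had a lower mean and 25 were lower in each cKO library than in any flox library, a pattern shown by 11.2% of all 18094 genes tested. When libraries were scaled to total counts alone, a choice made after the data were seen, the pattern held for 18 members and 3.70% of all genes. The members that lost it under that scaling were Lpl, Slc27a1, Acsl1, Crat, Acadl, Acads and Ehhadh. The median log2 fold change of the 37 was -1.48, against 0.00 for all genes tested. No member passed a Benjamini-Hochberg adjusted p of 0.05 when edgeR's quasi-likelihood test was run on all 6 libraries, in which 0.138% of all genes were called lower. The smallest adjusted p among the members was 0.0823, and before adjustment 25 lay under 0.05, as did 2715 of all 18094 genes. With DESeq2, 22 members were called lower and 0 higher (Wald test), against 4.38% of all genes lower and 5.30% higher. Without flox replicate 3, a library that stands apart, edgeR called 20 of the 37 lower and 0 higher, against 2.93% of all genes lower and 4.26% higher, and the median was -1.32. With all 6 libraries and an offset that removes the dependence of each library on transcript length it also called 20 lower, against 3.06% of all genes, and 18 of those 20 are shared. Leaving out any other single heart library gave 0 calls among the members. Beyond these fits, limma with sample quality weights called 28 members lower and 1 higher, against 9.32% of all genes called lower and 21.3% called in either direction. Without both flox replicate 3 and cKO replicate 2, which leaves 2 libraries a group, edgeR called 29 lower and 1 higher, against 9.53% and 9.54% of all genes.

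Flox replicate 3 differed from the other heart libraries before any gene of the pathway was considered. Of its counts, 41.7% came from mitochondrially encoded genes, where the other 5 libraries had 14.2% to 24.1%, and 1485 of the genes tested were at 0 in it, against 125 to 503. Its TMM scaling factor was 0.441, where the other heart libraries had 1.06 to 1.35, so its CPM depend strongly on the scaling. Over all genes tested, cKO replicate 2 also ran against transcript length within its group (Spearman rho -0.57, and 0.48 and 0.31 in the other cKO libraries; -0.65 in flox replicate 3, and 0.61 and 0.59 in the other flox libraries) and held the 503 genes at 0. Among the 37 members flox replicate 3 was the highest flox library for 25 genes, the lowest for 12 and between the other flox libraries for none. The log2 ratio of flox replicate 3 to the other flox libraries ran against transcript length across the members, with a Spearman rho of -0.75 and a Pearson r of -0.78 against log2 length (n = 37 genes that share these 3 libraries, a description with no test). Short transcripts such as Fabp3 and Etfb, at 0.823 and 0.893 kb, stood above the other flox libraries by 2.40 and 2.07 on the log2 scale. The longest, Acacb at 8.788 kb, stood below them, with a log2 ratio of -2.85. Most values for hearts are therefore given by library, with the result without flox replicate 3 beside that of all 6 for most members. For Acsl4, Cpt1a, Acads, Acadsb, Hsd17b4, Acaa1a and Decr2 the log2 fold change without flox replicate 3 was 0.41, -0.64, -0.87, -0.08, -0.56, -0.10 and 0.05.

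**Figure D1:**
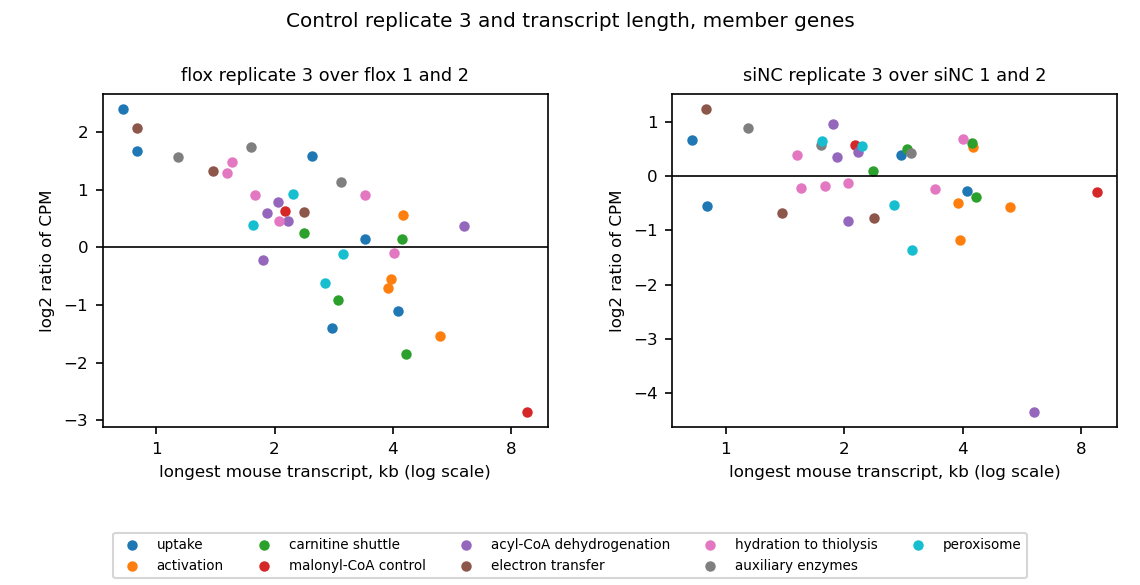
Log2 ratio of CPM in control replicate 3 to the mean of control replicates 1 and 2, plotted against the length of the longest mouse transcript in kb on a log axis, with 1 point per member gene coloured by step, for flox hearts (left) and siNC NRVCs (right, Acadsb at the bottom with a log2 ratio of -4.36). In hearts the points run from 2.40 for Fabp3, 0.823 kb long, down to -2.85 for Acacb, 8.788 kb long.

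Jmjd4 itself, a member of the JmjC family of oxygenases, was measured at 8.95, 4.92 and 9.63 CPM (counts per 1e+06 reads, scaled by TMM) in cKO hearts, against 19.0, 8.04 and 16.9 CPM in flox hearts. The cKO mean was lower but the groups overlapped (log2 fold change -0.90 ± 0.44 SE, adjusted p = 0.397). Which exons the floxed alleles lose is not stated in the labels, and counts over the whole gene can include reads from exons that remain. In NRVCs the libraries labelled siJmjd4 held 3.58, 3.43 and 3.52 CPM of Jmjd4, and those labelled siNC held 3.46, 4.40 and 0.982 CPM. No knockdown was thus seen in the RNA, and every direction for NRVCs below rests on the labels alone.

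The markers of cell types moved with the groups as well. The summed level of 12 cardiomyocyte markers was 35561 to 38190 CPM in cKO hearts and 57175 to 92412 CPM in flox hearts, with a median log2 fold change of -0.92 (0 of 12 called; without flox replicate 3, 2 lower with a median of -0.75). Fibroblast markers summed to 3889 to 5662 CPM in cKO hearts and 1551 to 2555 CPM in flox hearts, and macrophage markers to 641 to 828 CPM in cKO hearts and 299 to 529 CPM in flox hearts. Without flox replicate 3, 3 of 10 fibroblast markers and 9 of 12 macrophage markers were called higher. Endothelial markers summed to 1256 to 1337 CPM in cKO hearts and 821 to 1610 CPM in flox hearts, with 0 of 13 called either way, and smooth muscle and pericyte markers to 884 to 934 CPM in cKO hearts and 953 to 1300 CPM in flox hearts. Single markers of that last list went both ways, with 3 of 8 lower and 5 higher and a median log2 fold change of 0.23. Without flox replicate 3 that median was -0.26. Cnn1, the smooth muscle calponin, was called higher with all 6 libraries, at 14.2, 14.5 and 15.0 CPM in cKO hearts, against 1.501, 0.934 and 2.29 CPM in flox hearts (log2 fold change 3.22, adjusted p = 0.0387). The macrophage marker Ccr2 was called higher with all 6 libraries as well (2.04, adjusted p = 0.0493). The adipocyte list summed to 0.0839 to 1.39 CPM in cKO hearts and 0.141 to 0.394 CPM in flox hearts, with 3 of its 8 genes at 0 in every library. In tissue, fewer cardiomyocytes and less RNA of a gene per cardiomyocyte cannot be told apart. The part of these shifts in the results below was not tested.

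**Figure D2:**
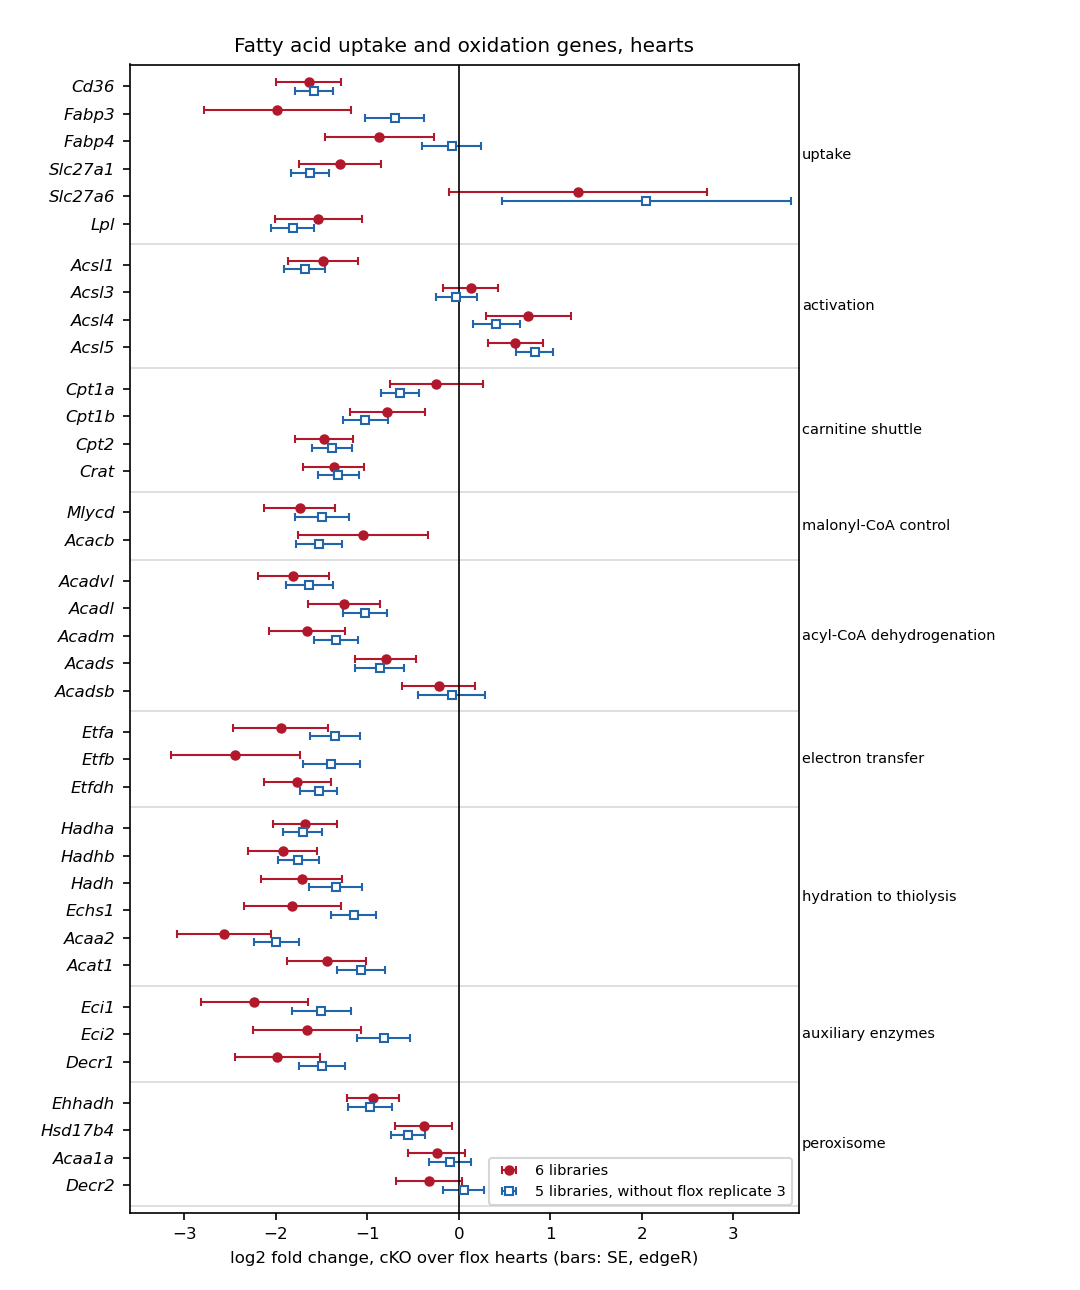
Log2 fold change of each of the 37 genes in cKO over flox hearts, on the horizontal axis, grouped by step from uptake (top) to peroxisome (bottom), with bars for the standard error from edgeR. Filled red points use 6 libraries and open blue squares the 5 without flox replicate 3. Most mitochondrial steps lie between -1 and -2.6, while Acsl4 and Acsl5 lie above 0. Of the peroxisomal genes, Ehhadh lies at -0.94 and the other 3 between -0.39 and -0.24. Scaling to total counts alone turns Cpt1a, Acadsb, Hsd17b4, Acaa1a and Decr2 positive, and Acsl3 and Decr2 change sign without flox replicate 3.

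At uptake, 5 of the 6 genes were lower in cKO hearts, and 3 of them, Cd36, Slc27a1 and Lpl, were called without flox replicate 3. Cd36, the fatty acid translocase of the plasma membrane, had 422, 421 and 417 CPM in cKO hearts, against 1281, 1251 and 1407 CPM in flox hearts. The groups were far apart and each was narrow, and Cd36 was 3.12-fold lower (log2 fold change -1.64 ± 0.35 SE, adjusted p = 0.0989; without flox replicate 3, -1.59 ± 0.21, adjusted p = 0.0108). Lpl, the lipoprotein lipase, had 1399, 1181 and 1236 CPM in cKO hearts and 4751, 4227 and 2084 CPM in flox hearts. Its flox replicate 3 lay nearest to the cKO libraries, and the log2 fold change was -1.54 ± 0.47 with all libraries (adjusted p = 0.195) and -1.82 ± 0.24 without that one (adjusted p = 0.0106). Slc27a1, which encodes the transport protein FATP1, had 53.4, 63.2 and 50.9 CPM in cKO hearts, against 163, 183 and 65.8 CPM in flox hearts. It too was called without flox replicate 3 (log2 fold change -1.63 ± 0.21, adjusted p = 0.0104), whereas with all libraries the adjusted p was 0.241. Over the 15 alternatives the adjusted p of these 3 genes ran between 1.8e-11 and 0.651.

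The small binding proteins of the cytosol were not called in either of these fits. Fabp3, the heart form and per length the most abundant member, had 959, 1953 and 1387 CPM in cKO hearts, against 2222, 2449 and 12337 CPM in flox hearts. Flox replicate 3 lay far above all other libraries, and the log2 fold change was -1.98 ± 0.80 with it (adjusted p = 0.315) and -0.70 ± 0.33 without it (adjusted p = 0.259). It was called lower in 2 of the 15 alternatives, by limma with quality weights (-0.94, adjusted p = 0.042) and by edgeR without flox replicate 3 and cKO replicate 2 (-1.004, adjusted p = 0.0209). Fabp4, known from fat cells, macrophages and capillaries, had 341, 597 and 322 CPM in cKO hearts, against 451, 438 and 1415 CPM in flox hearts, and the groups overlapped, with a log2 fold change of -0.87 that became -0.08 without flox replicate 3. Slc27a6, another transport protein, stayed at or under 0.525 CPM in all 6 libraries, too low for a direction.

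Activation was the step at which the members parted. Acsl1, the main long-chain acyl-CoA synthetase of heart muscle, had 299, 260 and 239 CPM in cKO hearts, against 859, 857 and 524 CPM in flox hearts. With TMM scaling all cKO libraries lay below all flox libraries, 2.81-fold on average (log2 fold change -1.49 ± 0.38, adjusted p = 0.136). Scaled to total counts alone, flox replicate 3 fell below every cKO library, with 18565 counts of Acsl1 against 28473, 20447 and 21402. Without flox replicate 3 the log2 fold change of Acsl1 was -1.69 ± 0.22 (adjusted p = 0.0108). Over the alternatives its adjusted p ran from 5e-05 to 0.498. Acsl5, a synthetase better known from intestine and liver, went the other way, with 25.5, 30.6 and 28.6 CPM in cKO hearts and 14.6, 17.3 and 23.5 CPM in flox hearts. It is the single member that was higher in every cKO library than in any flox library, a pattern shown by 14.9% of all genes. With total counts alone 2 members showed it, against 31.4% of all genes. The log2 fold change of Acsl5 was 0.62 ± 0.30 (adjusted p = 0.398), or 0.83 ± 0.20 without flox replicate 3 (adjusted p = 0.0532), and both fits missed the threshold. Limma with quality weights called it higher (0.79, adjusted p = 0.0117), as did edgeR without flox replicate 3 and cKO replicate 2 (0.75, adjusted p = 0.0203). Acsl5 was called in 2 of the 15 alternatives, and with the transcript length offset it stood at 0.19 (edgeR, adjusted p = 0.847). Acsl4, which prefers arachidonic acid, had 25.9, 15.99 and 21.1 CPM in cKO hearts against 17.1, 14.7 and 5.48 CPM in flox hearts, with overlap (log2 fold change 0.76 ± 0.47). Acsl3, a synthetase of the endoplasmic reticulum and lipid droplets, gave 0.13 ± 0.30, or -0.03 without flox replicate 3.

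Set per length of transcript, the shares of the 4 synthetases separated the groups. Acsl1 made up 85.6%, 84.9% and 83.1% of their summed CPM per kb in cKO hearts, against 96.3%, 96.2% and 94.5% in flox hearts. Acsl5 made up 6.72%, 9.19% and 9.12% in cKO hearts, against 1.498%, 1.79% and 3.89% in flox hearts, and Acsl4 made up 5.47%, 3.86% and 5.42% in cKO hearts, against 1.41%, 1.21% and 0.729% in flox hearts. The ranges did not overlap for any of the 4 genes, Acsl3 included, at 2.03% to 2.32% in cKO hearts and 0.786% to 0.869% in flox hearts. An exact two-sided permutation test gave p = 0.1 for each of the 4 shares, the smallest value that 3 libraries against 3 allow, and 0.15 after adjustment over the 12 ratios computed. The shares are parts of the same sum, so the 4 results are not separate. A lower level of Acsl1 alone raises the other shares, and Acsl3 itself had a log2 fold change of 0.13 ± 0.30.

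**Figure D3:**
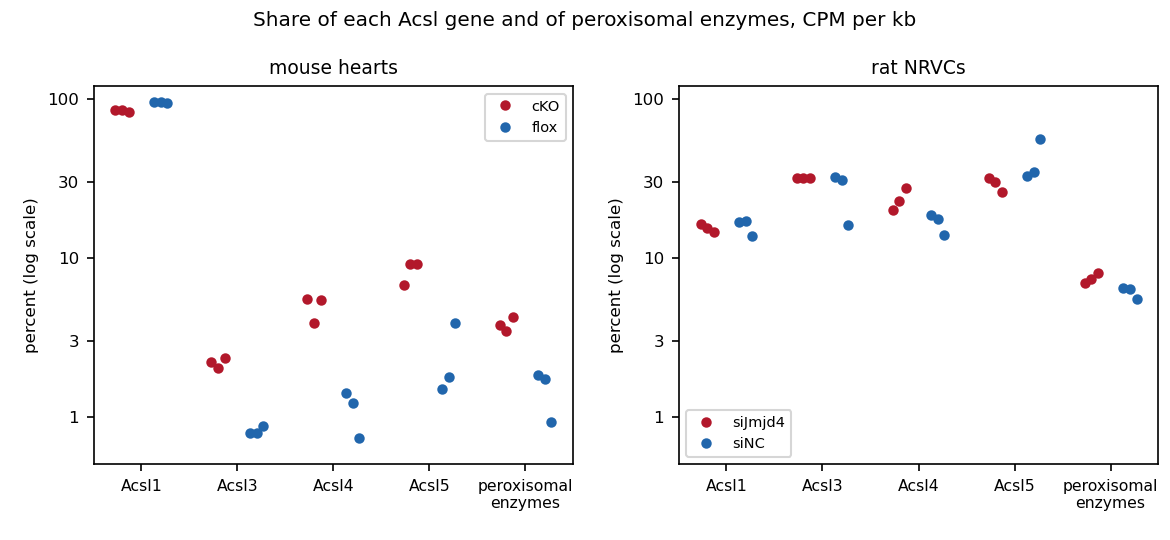
Share of each Acsl gene in the summed CPM per kb of the 4 Acsl genes, and share of the 4 peroxisomal enzymes in the summed CPM per kb of peroxisomal and mitochondrial enzymes, in percent on a log axis, with 1 point per library. In hearts (left, cKO left of flox) every share separates the groups, with Acsl1 at 83.1% to 85.6% in cKO hearts and 94.5% to 96.3% in flox hearts. The 4 Acsl shares are parts of the same sum and depend on each other. In NRVCs (right, siJmjd4 left of siNC) the shares of Acsl1 and Acsl3 overlap.

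In the carnitine shuttle Cpt2 and Crat, which act inside the mitochondrion, separated the groups, and both genes of the outer gate overlapped. Crat overlapped too when scaled to total counts alone. Cpt2, the carnitine palmitoyltransferase of the inner membrane, had 61.8, 71.7 and 62.1 CPM in cKO hearts, against 148, 195 and 203 CPM in flox hearts. That is 2.78-fold lower with no overlap (log2 fold change -1.48 ± 0.32, adjusted p = 0.0988; without flox replicate 3, -1.39 ± 0.22, adjusted p = 0.0164). Crat, the carnitine acetyltransferase that buffers acetyl-CoA, had 154, 192 and 145 CPM in cKO hearts, against 386, 431 and 450 CPM in flox hearts, again with no overlap (-1.37 ± 0.33, adjusted p = 0.121; without flox replicate 3, -1.32 ± 0.23, adjusted p = 0.021). The adjusted p of Cpt2 and Crat ran between 5.8e-06 and 0.498 over the alternatives. Cpt1b, the muscle form of the gate enzyme on the outer membrane, had 250, 319 and 213 CPM in cKO hearts, against 519, 543 and 281 CPM in flox hearts. Flox replicate 3 lay among the cKO libraries, so the groups overlapped (-0.78 ± 0.41, adjusted p = 0.433; without flox replicate 3, -1.02 ± 0.25, adjusted p = 0.0546), and limma with quality weights called it lower (-1.13, adjusted p = 0.0035). Cpt1a, the liver form, had 41.1, 31.2 and 33.8 CPM in cKO hearts, against 56.5, 54.3 and 15.3 CPM in flox hearts. Its direction depended on the setting, with a log2 fold change of -0.25 ± 0.51 that turned to 0.12 when scaled to total counts alone, and -0.57 with a call without flox replicate 3 and cKO replicate 2 (adjusted p = 0.0429). Differences between the genes of the shuttle were not tested.

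Both genes of malonyl-CoA control, which sets how open the carnitine gate is, were called lower without flox replicate 3. Mlycd, the decarboxylase that removes malonyl-CoA, had 31.1, 48.7 and 25.7 CPM in cKO hearts, against 97.9, 102 and 154 CPM in flox hearts. No libraries overlapped and Mlycd was 3.35-fold lower (-1.74 ± 0.39, adjusted p = 0.105; without flox replicate 3, -1.50 ± 0.29, adjusted p = 0.031). Acacb, the acetyl-CoA carboxylase that makes malonyl-CoA at the mitochondrial surface, had 145, 94.3 and 113 CPM in cKO hearts, against 338, 341 and 47.1 CPM in flox hearts. Flox replicate 3 lay below every cKO library, and the other flox libraries lay well above them all (-1.05 ± 0.71, adjusted p = 0.558; without flox replicate 3, -1.53 ± 0.25, adjusted p = 0.0183). Over the alternatives the adjusted p of these genes ran between 0.00054 and 0.896.

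**Figure D4:**
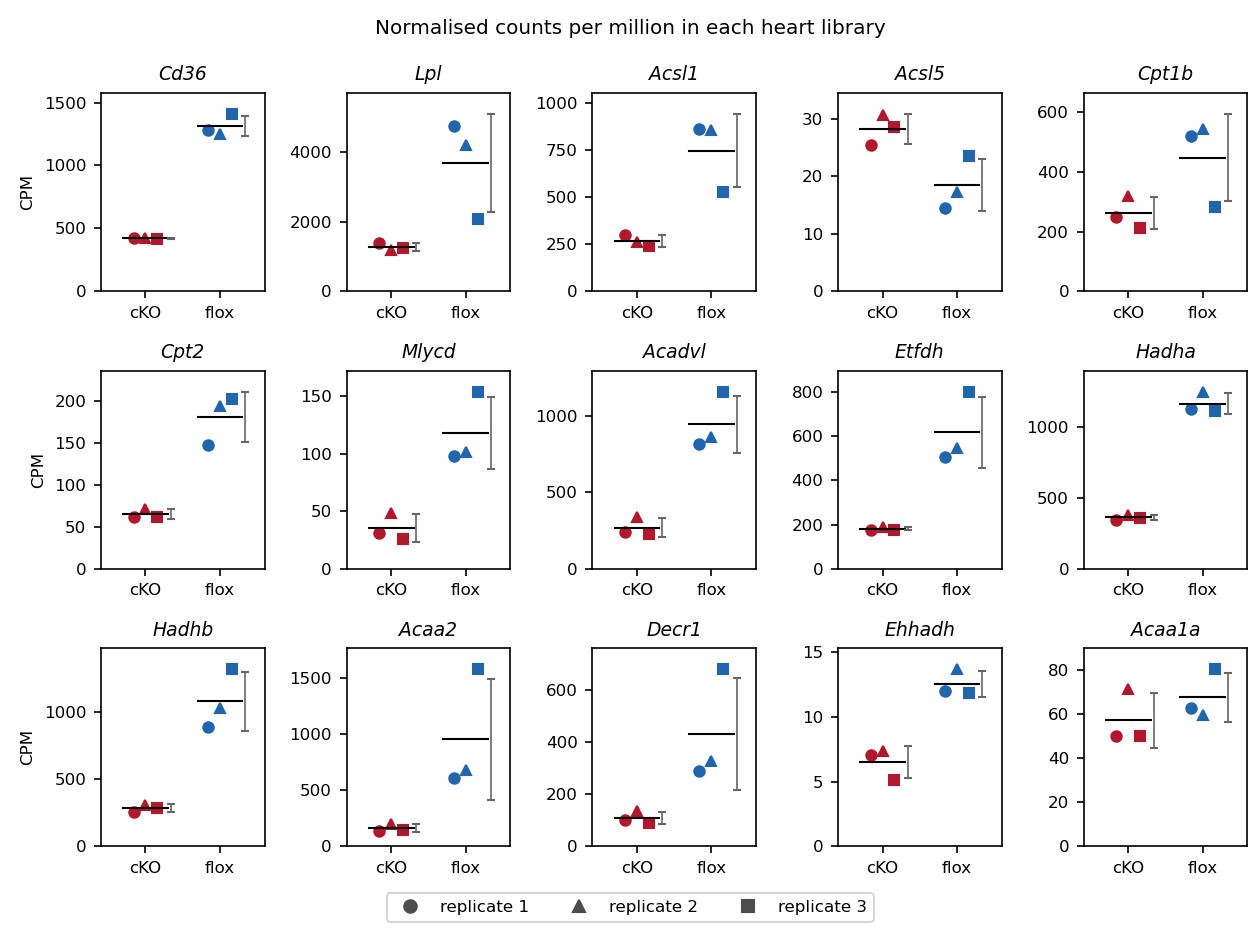
CPM of 15 genes in each heart library on linear axes from 0, cKO (red) left of flox (blue), with the replicate shown by the marker, a line at the mean and a grey bar for 1 SD (n = 3). The cKO libraries cluster below all flox libraries for Cd36, Lpl, Acsl1, Cpt2, Mlycd, Acadvl, Etfdh, Hadha, Hadhb, Acaa2, Decr1 and Ehhadh, lie above them for Acsl5 and overlap with them for Cpt1b and Acaa1a. The square marks flox replicate 3, which is the lowest flox library for Lpl and Acsl1 and the highest for Acaa2 and Decr1. Under scaling to total counts alone the mean of Acaa1a is higher in cKO hearts, and Lpl, Acsl1 and Ehhadh no longer separate the groups.

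The acyl-CoA dehydrogenases open each turn of the cycle and divide the substrates by chain length. Of these 5 genes, 4 were lower in every cKO library than in any flox library, and differences between chain lengths were not tested. Scaled to total counts alone, Acadl and Acads no longer separated the groups. Acadvl, for very long chains, had 242, 341 and 225 CPM in cKO hearts, against 814, 862 and 1156 CPM in flox hearts. It was 3.51-fold lower with no overlap (-1.81 ± 0.39, adjusted p = 0.0996; without flox replicate 3, -1.63 ± 0.26, adjusted p = 0.0172). Acadm, for medium chains, had 319, 389 and 274 CPM in cKO hearts, against 807, 858 and 1438 CPM in flox hearts (-1.66 ± 0.42, adjusted p = 0.128; without flox replicate 3, -1.34 ± 0.24, adjusted p = 0.0235). For Acadvl and Acadm the adjusted p ran between 5.7e-06 and 0.504 over the alternatives. Acadl, for long chains and per length the most abundant dehydrogenase, had 391, 521 and 379 CPM in cKO hearts, against 849, 907 and 1331 CPM in flox hearts. The groups did not overlap, but edgeR called it neither with all libraries nor without flox replicate 3 (-1.26 ± 0.39, adjusted p = 0.2; without flox replicate 3, -1.02 ± 0.24, adjusted p = 0.0508). It was called lower in 4 of the 15 alternatives, namely DESeq2 (adjusted p = 0.0044), the length correction (adjusted p = 0.0201), limma with quality weights (adjusted p = 0.0028) and edgeR without flox replicate 3 and cKO replicate 2 (adjusted p = 0.0042). Acads, for short chains, stood at 50.6, 83.6 and 53.6 CPM in cKO hearts, against 108, 120.5 and 98.1 CPM in flox hearts, without overlap (-0.80 ± 0.33). It was not called with all libraries or without flox replicate 3, but was called lower by limma with quality weights (adjusted p = 0.0046) and without flox replicate 3 and cKO replicate 2 (adjusted p = 0.0042). Acadsb, which serves branched chains from isoleucine, overlapped between the groups at -0.22 ± 0.40, and turned to 0.39 when scaled to total counts alone.

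All 3 genes of electron transfer were lower in every cKO library than in any flox library and were called without flox replicate 3. They hand the electrons of the dehydrogenases to ubiquinone. Etfdh, the ubiquinone oxidoreductase, had 177, 190 and 176 CPM in cKO hearts, against 505.6, 546 and 801 CPM in flox hearts. The cKO libraries were close together and 3.41-fold lower (-1.77 ± 0.37, adjusted p = 0.0935; without flox replicate 3, -1.53 ± 0.20, adjusted p = 0.0108). Etfa, the alpha subunit of the flavoprotein, had 173, 264 and 164 CPM in cKO hearts, against 499, 527 and 1287 CPM in flox hearts. Etfb, the beta subunit, had 94.6, 162 and 88.8 CPM in cKO hearts, against 277, 330 and 1273 CPM in flox hearts. Both short transcripts were far higher in flox replicate 3, and without it their log2 fold changes came closer together, at -1.35 ± 0.27 for Etfa and -1.40 ± 0.31 for Etfb (adjusted p = 0.0329 and 0.0446), against -1.95 ± 0.52 and -2.44 ± 0.70 with it (0.149 and 0.174). Over the alternatives the adjusted p of the 3 genes ran between 2.9e-06 and 0.553.

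The steps from hydration to thiolysis held the smallest p of the pathway, and all 6 genes were lower in every cKO library. Hadha and Hadhb encode the alpha and beta subunits of the trifunctional protein, which carries out the last 3 reactions on long chains. Hadha had 347, 381 and 361 CPM in cKO hearts, against 1125, 1247 and 1114 CPM in flox hearts. Hadhb had 253, 309 and 287 CPM in cKO hearts, against 883, 1028 and 1314 CPM in flox hearts. The log2 fold changes of the pair differed by less than their standard errors, -1.68 ± 0.35 for Hadha and -1.93 ± 0.37 for Hadhb (adjusted p = 0.0941 and 0.0823), and -1.71 ± 0.21 and -1.75 ± 0.22 without flox replicate 3 (0.0101 and 0.0104). For Hadha flox replicate 3 stood beside the other flox libraries, with a log2 ratio of -0.09 to them.

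Acaa2, the thiolase for medium chains, had 141, 201 and 143 CPM in cKO hearts, against 610, 681 and 1579 CPM in flox hearts. Its log2 fold change was the lowest of the 37, -2.57 ± 0.52 with all libraries (5.92-fold lower, adjusted p = 0.0892) and -2.00 ± 0.25 without flox replicate 3 (3.99-fold lower, adjusted p = 0.0104). Hadh, the short-chain hydroxyacyl-CoA dehydrogenase, had 160, 223 and 123.2 CPM in cKO hearts, against 408, 453 and 805 CPM in flox hearts. Echs1, the short-chain enoyl-CoA hydratase, had 112, 172 and 125 CPM in cKO hearts, against 303, 303 and 843 CPM in flox hearts. Both were called without flox replicate 3, at -1.35 ± 0.29 for Hadh and -1.15 ± 0.25 for Echs1 (adjusted p = 0.0407 for each), and neither with it (-1.72 and -1.82, adjusted p = 0.139 and 0.177). Acat1, the thiolase that also serves ketone bodies, separated the groups but was not called in either fit (-1.45 ± 0.43, adjusted p = 0.18; without flox replicate 3, -1.07 ± 0.26, adjusted p = 0.0555), and was called lower in 3 of the 15 alternatives, DESeq2 among them (adjusted p = 0.0084). For the 5 called genes the adjusted p ran between 9.4e-14 and 0.558 over the alternatives.

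Hadha and Hadhb lie head to head on mouse chromosome 5, Hadha on the minus strand at 30118304 to 30155162 and Hadhb on the plus strand at 30155248 to 30184593 (GENCODE M21 on GRCm38), so one stretch between them is upstream of both. That stretch is shown, with the promoters of all 5 further genes that were called lower without flox replicate 3 and that hold AGGTCA, the core motif of nuclear receptor sites, on either strand. Each runs from 250 bases before to 50 bases after the gene start, 5′ to 3′ on the strand of the gene, from RefSeq on GRCm38.p6, where the gene start is that of RefSeq. For Cd36 and Acacb it lies 52.9 and 19.0 kb downstream of the 5′ end that GENCODE M21 gives, so these windows are inside the longer GENCODE genes and not at their first exons. The letters are shown with the core motif in capitals (TGACCT where the site is on the other strand). The windows lie at chr5:30155003-30155302 (plus, Hadhb), chr5:17835847-17836146 (minus, Cd36), chr5:114165268-114165567 (plus, Acacb), chr11:70015379-70015678 (minus, Acadvl), chr3:153944594-153944893 (minus, Acadm) and chr7:140116372-140116671 (minus, Echs1).
Hadhb: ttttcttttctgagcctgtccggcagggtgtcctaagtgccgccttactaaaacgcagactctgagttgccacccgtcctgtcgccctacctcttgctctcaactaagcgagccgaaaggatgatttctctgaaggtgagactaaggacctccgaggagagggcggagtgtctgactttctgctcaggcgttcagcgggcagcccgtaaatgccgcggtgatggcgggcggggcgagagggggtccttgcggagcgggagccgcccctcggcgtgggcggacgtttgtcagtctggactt
Cd36: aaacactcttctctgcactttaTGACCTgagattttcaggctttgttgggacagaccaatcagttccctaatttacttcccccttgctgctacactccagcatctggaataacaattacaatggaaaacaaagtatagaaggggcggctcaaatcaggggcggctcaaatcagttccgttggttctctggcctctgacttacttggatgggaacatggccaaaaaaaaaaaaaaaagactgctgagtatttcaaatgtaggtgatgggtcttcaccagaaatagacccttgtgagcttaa
Acacb: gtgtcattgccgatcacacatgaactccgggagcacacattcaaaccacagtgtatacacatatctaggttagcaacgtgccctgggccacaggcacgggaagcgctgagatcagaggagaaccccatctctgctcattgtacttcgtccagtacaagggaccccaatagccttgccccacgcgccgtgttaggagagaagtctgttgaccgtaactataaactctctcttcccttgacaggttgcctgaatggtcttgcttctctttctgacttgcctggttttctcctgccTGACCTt
Acadvl: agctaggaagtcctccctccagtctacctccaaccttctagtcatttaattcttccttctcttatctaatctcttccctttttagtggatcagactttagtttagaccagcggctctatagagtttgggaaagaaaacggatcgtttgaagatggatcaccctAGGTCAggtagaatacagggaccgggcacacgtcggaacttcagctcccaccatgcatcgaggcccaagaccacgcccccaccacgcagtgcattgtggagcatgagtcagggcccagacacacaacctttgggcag
Acadm: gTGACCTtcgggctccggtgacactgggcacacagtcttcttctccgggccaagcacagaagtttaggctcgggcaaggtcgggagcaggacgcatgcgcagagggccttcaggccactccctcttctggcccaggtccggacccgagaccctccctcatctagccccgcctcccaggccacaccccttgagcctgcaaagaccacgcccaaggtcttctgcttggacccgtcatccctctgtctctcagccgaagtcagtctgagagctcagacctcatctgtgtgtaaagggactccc
Echs1: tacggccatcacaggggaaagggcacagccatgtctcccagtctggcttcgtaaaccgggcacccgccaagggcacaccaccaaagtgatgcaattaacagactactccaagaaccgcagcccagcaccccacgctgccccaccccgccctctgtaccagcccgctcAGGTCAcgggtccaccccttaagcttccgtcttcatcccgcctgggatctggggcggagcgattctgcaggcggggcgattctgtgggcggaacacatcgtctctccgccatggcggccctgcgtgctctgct
A promoter window was found for 28 of the 37 genes, with 31 windows in all. The shares below are per gene for the members and per window for all promoters, so their units differ. The core motif occurs in 6 of those 28 (21.4%), namely Cd36, Cpt1a, Acacb, Acadvl, Acadm and Echs1, and in 16.3% of all 32851 promoter windows. The longer ERR element TCAAGGTCA, which contains the core motif, occurs in 0 of 28 and in 0.423% of all windows. A direct repeat of 2 copies of AGGTCA with 1 base between them, searched on both strands with up to 2 mismatches, occurs in 3 of 28 (10.7%), namely Cd36, Etfa and Echs1, and in 3.86% of all windows. It overlaps with the core motif in Echs1 and not in Cd36. The window of Hadhb, shared in large part with Hadha, holds none of the 3. These are matches of letters in short windows and say nothing of which factor binds there.

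The auxiliary enzymes, which rearrange double bonds of unsaturated chains, were lower at all 3 genes. Decr1, the dienoyl-CoA reductase of mitochondria, had 102, 136 and 88.7 CPM in cKO hearts, against 290, 327 and 680 CPM in flox hearts. Eci1, an enoyl-CoA isomerase, had 53.0, 94.9 and 48.5 CPM in cKO hearts, against 186, 187 and 554 CPM in flox hearts. No library overlapped for either, and both were called without flox replicate 3, at -1.50 ± 0.25 for Decr1 (adjusted p = 0.0204) and -1.51 ± 0.32 for Eci1 (adjusted p = 0.0399), whereas with it they stood at -1.99 ± 0.47 and -2.24 ± 0.59 (0.116 and 0.144; from 0.00059 to 0.504 over the alternatives). Eci2, an isomerase found in both peroxisomes and mitochondria, separated the groups at -1.66 ± 0.59, yet at -0.82 ± 0.29 without flox replicate 3, and was not called in these fits (adjusted p = 0.257 and 0.15), though in 2 of the 15 alternatives.

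The peroxisomal enzymes were not called with all libraries or without flox replicate 3 and had smaller values, with a median log2 fold change of -0.36 over 4 genes. Ehhadh, the bifunctional enzyme of peroxisomes, had 7.04, 7.36 and 5.11 CPM in cKO hearts, against 12.01, 13.7 and 11.9 CPM in flox hearts. The groups did not overlap and the level was 1.92-fold lower (-0.94 ± 0.28, adjusted p = 0.186; without flox replicate 3, -0.98 ± 0.24, adjusted p = 0.0591), and it was called lower in 4 of the 15 alternatives, among them the length correction (adjusted p = 0.0365). Hsd17b4, the D-bifunctional protein, had 58.1, 59.6 and 66.5 CPM in cKO hearts, against 86.8, 94.5 and 59.4 CPM in flox hearts, with overlap at -0.39 ± 0.31, and was called lower in 2 of the 15 alternatives. Acaa1a, the peroxisomal thiolase, had 50.1, 71.3 and 49.8 CPM in cKO hearts, against 62.6, 59.7 and 80.2 CPM in flox hearts, and Decr2, the peroxisomal reductase, had 10.7, 15.0 and 13.7 CPM in cKO hearts, against 11.6, 13.8 and 24.0 CPM in flox hearts. Both overlapped, at -0.24 ± 0.31 and -0.32 ± 0.36, and Hsd17b4, Acaa1a and Decr2 turned to 0.10, 0.37 and 0.40 when scaled to total counts alone. Under that scaling Ehhadh no longer separated the groups. Reads of Acaa1a may be split with its near-identical copy Acaa1b. Per length, the 4 peroxisomal enzymes made up 3.79%, 3.48% and 4.23% of the summed CPM per kb of peroxisomal and mitochondrial enzymes in cKO hearts, against 1.83%, 1.74% and 0.929% in flox hearts. The exact permutation test gave p = 0.1 for this share, and 0.15 after adjustment over the 12 ratios. With TMM scaling all 4 genes had a lower mean in cKO hearts, so the higher share is not a higher level. A difference between peroxisomal and mitochondrial fold changes was not tested.

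Summed by step, the cKO libraries lay below the flox libraries at each of the 9 steps with TMM scaling. With total counts alone this held at 5 of the 9, and flox replicate 3 fell below the cKO libraries for activation, the carnitine shuttle, malonyl-CoA control and the peroxisomal genes. The 6 genes from hydration to thiolysis summed to 1230, 1549 and 1202 CPM in cKO hearts, against 3784, 4165 and 6505 CPM in flox hearts. The 5 acyl-CoA dehydrogenases summed to 1102, 1428 and 975 CPM in cKO hearts, against 2663, 2830 and 4132 CPM in flox hearts. The peroxisomal genes came closest together, at 126, 153 and 135 CPM in cKO hearts and 173, 182 and 175 CPM in flox hearts. Together the 37 genes took 0.962% to 1.06% of all counts in cKO hearts and 1.53% to 2.16% in flox hearts. When libraries were scaled to total counts alone, the median of all genes tested stood at 0.54 and that of the members at -0.88. Relative to all genes the members lay at -1.41, close to the -1.48 of the TMM scaling. With TMM scaling the median of all genes was already 0.00. The closeness of -1.41 and -1.48 therefore does not test the choice of scaling.

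Of 50 further symbols of the same pathway, 45 were tested in hearts, 36 with a lower and 9 with a higher value, and their median log2 fold change was -0.73. With all 6 libraries edgeR called none, and 19 had an unadjusted p under 0.05, as did 2715 of all 18094 genes. Without flox replicate 3, 11 were called lower and 0 higher, against 2.93% and 4.26% of all genes, with a median of -0.43. Ech1, an isomerase of dienoyl-CoA, had 176, 272 and 163 CPM in cKO hearts, against 713, 850 and 2861 CPM in flox hearts, and its log2 fold change without flox replicate 3 was -1.94 (adjusted p = 0.0148). The other 10 called were Slc22a5, the carnitine transporter of the plasma membrane (-0.95), Acss1, the acetyl-CoA synthetase of mitochondria (-1.47), Acsl6 (-1.89), Vldlr, a lipoprotein receptor (-1.41), Acad11 (-0.94), Ivd, the isovaleryl-CoA dehydrogenase (-1.28), Abcd3, a peroxisomal transporter (-1.06), Nudt7, a peroxisomal hydrolase of CoA (-1.36), and Pcca and Mut, which turn propionyl-CoA into succinyl-CoA (-1.27 and -1.20). Slc25a20, the carnitine and acylcarnitine carrier, had 61.9, 95.9 and 60.3 CPM in cKO hearts and 149, 163 and 387 CPM in flox hearts, and just missed the threshold (-1.10, adjusted p = 0.054).

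In NRVCs the pathway showed smaller differences. Of the 35 members tested, 22 had a lower and 13 a higher mean in the libraries labelled siJmjd4, with a median log2 fold change of -0.26, against 0.01 for all 15497 genes tested. edgeR called 0 members, and 0.00645% of all genes, at an adjusted p of 0.05, with a smallest adjusted p of 0.379 among the members. Before adjustment 4 members lay under 0.05, as did 1350 of all 15497 genes. In each library labelled siJmjd4, 14 members were lower and 4 higher than in any labelled siNC, against 17.8% and 22.4% of all genes. One control library, siNC replicate 3, stands apart here. It was the highest siNC library for 18 of 36 members and the lowest for 17, and 461 genes tested were at 0 in it, against 78 to 137 in the other 5. Without it edgeR again called 0 members, against 0.570% of all genes, and the median was -0.17. DESeq2 and the fit with the length correction also gave 0 calls, the second with a median of -0.07, and limma with sample quality weights called Acadsb alone among the members, against 7.41% of all genes.

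The genes with the smallest p of each step had overlapping or narrowly separated libraries once siNC replicate 3 was set aside. Fabp3 had 196, 149 and 137 CPM in the libraries labelled siJmjd4, against 201, 214 and 331 CPM in siNC (log2 fold change -0.63 ± 0.25, adjusted p = 0.379; without siNC replicate 3, -0.36 ± 0.15). Acsl4 had 61.9, 73.7 and 92.5 CPM in the libraries labelled siJmjd4, against 56.99, 53.7 and 37.5 CPM in siNC, with no overlap (0.62 ± 0.23, adjusted p = 0.379; without siNC replicate 3, 0.46 ± 0.16). Acads had 58.5, 54.1 and 45.4 CPM in the libraries labelled siJmjd4, against 68.1, 65.7 and 131 CPM in siNC (-0.74 ± 0.30; without siNC replicate 3, -0.34 ± 0.11). In each case siNC replicate 3 was the library farthest from those labelled siJmjd4. The same held for Crat, Mlycd, Etfb, Hadha, Eci1 and Acaa1a, with log2 fold changes of -0.44, -0.52, -0.85, -0.53, -0.73 and -0.40, and of -0.21, -0.29, -0.30, -0.25, -0.37 and -0.15 without that library.

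Both NRVC libraries whose levels ran against transcript length were also left out together. Without siNC replicate 3 and siJmjd4 replicate 1, 9 members were called lower and 3 higher of 36 tested, against 5.18% and 10.6% of all 15620 genes. Those lower were Fabp3 (-0.55), Crat (-0.28), Mlycd (-0.41), Acadl (-0.36), Acads (-0.45), Etfb (-0.41), Hadha (-0.32), Hadhb (-0.25) and Eci1 (-0.49), and those higher were Lpl (0.25), Acsl4 (0.57) and Acadsb (1.19). This fit keeps 2 libraries a group, and edgeR made none of these calls with all 6. Across the 35 members the log2 fold change went with transcript length (Spearman rho 0.58, and 0.71 without siNC replicate 3, a description over genes that share libraries), and the part of length in these values was not tested.

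Single libraries held odd counts for some members in NRVCs. Echs1 had 2751, 0 and 1676 counts in the libraries labelled siJmjd4, against 1770, 2071 and 1402 counts in siNC. A count of 0 allows up to 3 counts, or 0.0478 CPM, which covers counting error only. Acadsb had 12.1, 15.3 and 15.97 CPM in the 3 libraries labelled siJmjd4, against 7.85, 5.68 and 0.321 CPM in siNC (log2 fold change 1.65 ± 0.92, adjusted p = 0.379; without siNC replicate 3, 1.10 ± 0.19, adjusted p = 0.0521). Ehhadh and Slc27a6 stayed at or under 1.20 and 0.279 CPM in the rat cells, and Slc27a6 was below the filter. Cardiomyocyte markers summed to 9849 to 12245 CPM in the libraries labelled siJmjd4 and 12909 to 19874 CPM in siNC, and fibroblast markers to 41185 to 47935 CPM in the libraries labelled siJmjd4 and 35507 to 42568 CPM in siNC, so the cultures held RNA of both. The members together took 0.227% to 0.261% of counts in the libraries labelled siJmjd4 and 0.258% to 0.271% in siNC.

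Hearts and NRVCs were set against each other in one edgeR model of all 12 libraries, where the contrast is the log2 fold change in hearts minus that in NRVCs over 13482 shared symbols. Both systems differ in species, age, time, tissue and method of silencing, which cannot be told apart here. Of 36 members, 2 were called with a lower response in hearts, against 0.341% of all symbols, and the median difference was -1.22, against -0.03 for all. They are Hadhb, with log2 fold changes of -1.93 in hearts and -0.17 in NRVCs (difference -1.75 ± 0.36, adjusted p = 0.0349), and Etfdh, with -1.77 in hearts and 0.05 in NRVCs (difference -1.81 ± 0.41, adjusted p = 0.0495). Etfdh is at the edge of the threshold. Over the 16 alternatives the adjusted p ran between 0.002 and 0.126 for Hadhb and between 0.002 and 0.158 for Etfdh, and it stayed under 0.05 in 4 and 3 of them. Leaving out any one library other than flox replicate 1 or flox replicate 3 gave 0 calls among the members.

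Without both flox replicate 3 and siNC replicate 3, 19 members had a lower response in hearts and 1 a higher one, against 5.68% and 7.16% of all 13647 symbols, with a median difference of -1.11. Lpl led with -2.05 ± 0.22 (adjusted p = 0.00093). The separate fits without these libraries gave it a log2 fold change of -1.82 in hearts and 0.23 in NRVCs. Acaa2 followed with -1.82 ± 0.25, Acsl1 with -1.63 ± 0.20 and Acacb with -1.58 ± 0.26. The single member with a higher response in hearts was Acsl5, at 0.94 ± 0.19 (adjusted p = 0.0131), which stood at 0.62 in hearts and -0.33 in NRVCs with all libraries. No call was made for Acsl3, Acsl4, Acaa1a or Decr2, whose differences were -0.12 ± 0.19, -0.06 ± 0.31, 0.04 ± 0.25 and 0.01 ± 0.23.

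**Figure D5:**
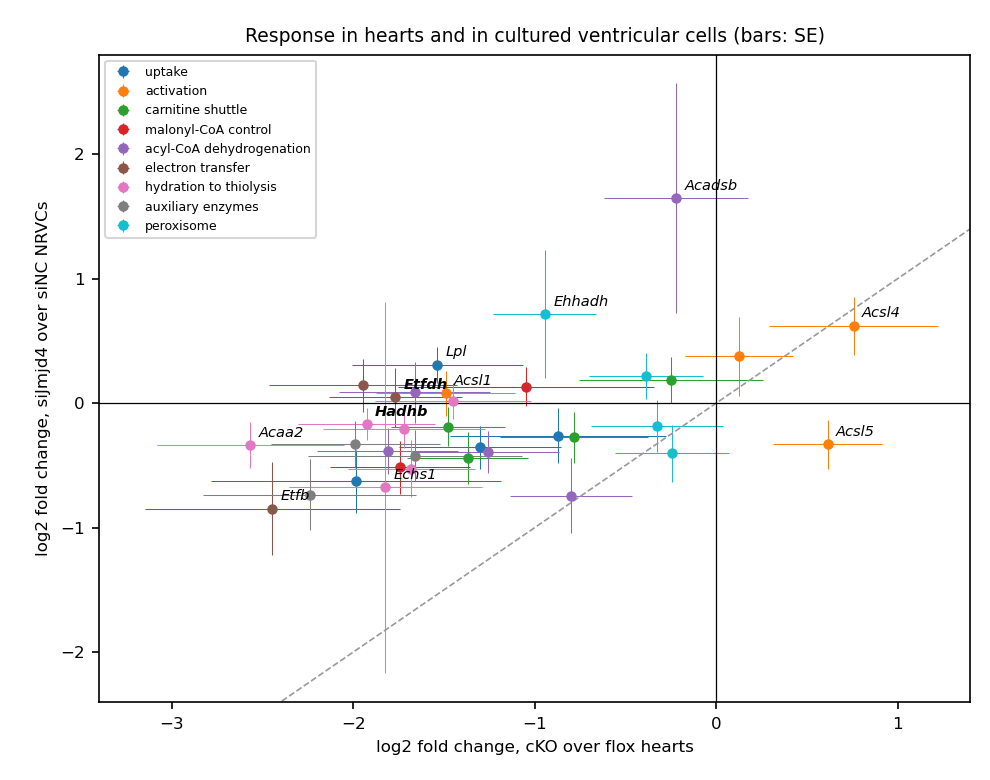
Log2 fold change of 35 members in siJmjd4 over siNC NRVCs (vertical axis) against cKO over flox hearts (horizontal axis), 1 point per gene coloured by step, with standard errors as bars and a dashed line of equal response. Most points lie left of the line with values between -1 and -2.6 in hearts and between -0.85 and 0.31 in NRVCs. Hadhb and Etfdh, in bold, are the members called for the difference.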

How the data were processed

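RNA was measured in 12 libraries, 3 each of cKO and flox mouse hearts and of rat NRVCs given siJmjd4 or siNC. The authors deposited raw counts per gene symbol, 1 table for each system. The submitters' processing notes list HISAT2 2.1.0, StringTie 1.3.4 and edgeR 3.20.9 beside mm10 and rn6, without saying what each did. Kit, strandedness and annotation: not given in the sources used here. Libraries held 57174654 to 82187009 counts.

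Each system was fitted apart with edgeR 4.0.16 in R 4.3.3 (filterByExpr, TMM, quasi-likelihood test with robust dispersion, group as the only term), and p-values were adjusted by Benjamini and Hochberg over all 18094 mouse or 15497 rat genes tested. Genes were called at an adjusted p under 0.05. CPM use TMM-scaled library sizes, and standard errors come from the F statistic. The difference between systems was 1 contrast in a model of all 12 libraries over shared symbols. Positions and the longest transcript per gene come from GENCODE M21 on GRCm38, with the mouse length used for the rat gene of the same symbol. The length correction used a smooth of span 0.3 as an offset, for which a length was found for 78.9% of the genes tested in the mouse and 82.8% in the rat. A count of 0 was given a floor of 3 counts. DESeq2 1.42.0 and limma 3.58.1 served as alternatives, besides other scaling, filters, a block for the replicate number and left-out libraries. Simulated counts were used to test the code.

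The members, the other lists and the alternatives were chosen with earlier results of these data known. All members may be named, with values by library for those with the smallest p of each step, the highest level of each step, or a call in either system or without flox replicate 3. Of the other pathway genes, those called in these fits are named, and Slc25a20 was added after its values were seen. Whether replicate numbers paired the samples could not be settled, and the main fits treated them as unpaired. No 2 libraries of a group were duplicates, since chi-square per degree of freedom between them was 26.1 to 1581.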

Additional observations from a re-analysis of the deposited data

Results flagged for a closer look

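The response differed between hearts and NRVCs for 2 members in the test of the difference itself (edgeR, adjusted over 13482 symbols). For Hadhb, the beta subunit of the trifunctional protein, the difference was -1.75 on the log2 scale, from -1.93 in hearts and -0.17 in NRVCs, and all 3 cKO libraries lay below all 3 flox libraries, as did all 3 labelled siJmjd4 below all 3 labelled siNC. For Etfdh, the oxidoreductase that passes electrons to ubiquinone, it was -1.81, from -1.77 in hearts, where all 3 cKO libraries lay below all 3 flox libraries, and 0.05 in NRVCs, where the libraries overlapped. Groups of 3 are too small for a search for single outlying samples.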

How the results depend on the processing

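In hearts the count of members called was 0 with all 6 libraries in edgeR and also 0 with DESeq2's size factors, total counts alone, no filter, a minimum mean of 5 CPM and the replicate block. It was 22 with DESeq2's Wald test, 29 with limma and sample quality weights (28 lower, 1 higher), 20 with the transcript length correction and 30 without flox replicate 3 and cKO replicate 2 (29 lower, 1 higher), against 4.38%, 9.32%, 3.06% and 9.53% of all genes called lower in the same fits, and it ran from 0 to 20 when 1 library was left out, with 20 without flox replicate 3. The median of the members moved to -0.88 with total counts alone and otherwise stayed between -1.55 and -1.32. Of the 37 members, 28 were lower and 3 higher in value under every alternative, and 6 changed sign. Of the 9 step sums, 5 separated the groups with total counts alone. With total counts alone Cpt1a stood at 0.12, Acadsb at 0.39, Hsd17b4 at 0.10, Acaa1a at 0.37 and Decr2 at 0.40. Acsl3 stood at -0.11 with the length correction. With 1 library left out, Acsl3 ran from -0.027 (without flox replicate 3) to 0.23, Cpt1a from -0.64 to 0.032 (without flox replicate 1), Acadsb from -0.41 to 0.079 (without cKO replicate 3) and Decr2 from -0.51 to 0.050 (without flox replicate 3).

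In NRVCs the count was 1 with limma and sample quality weights and 12 without siNC replicate 3 and siJmjd4 replicate 1, against 0 in edgeR with all libraries and when any 1 was left out, and the median was -0.067 with the length correction. For the difference between systems the count of 2 went to 0 with DESeq2's size factors and 1 with total counts alone. It was 20 without flox replicate 3 and siNC replicate 3, and ran from 0 to 15 when 1 library was left out. The 15 came without flox replicate 3, with Acsl5 higher in hearts (1.13) and the others lower. The share of all symbols called in that fit is not given here, so the 15 cannot be set against it. The cause of these shifts was not tested, beyond the lower number of libraries that the reduced fits hold.

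Replicate numbers are shared by the groups. The deviations of same-numbered samples had correlations of 0.357, -0.479 and -0.331 in hearts and -0.142, -0.019 and -0.150 in NRVCs. For heart samples with different numbers they ran from -0.472 to 0.552, so these correlations cannot decide whether samples were paired. The block by replicate number gave 0 calls in each system and medians of -1.42 in hearts and -0.24 in NRVCs. Slc27a6 in both systems and Ehhadh in the rat rest on few counts, which limits their direction.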
